A study of Mus musculus with 5 samples.

Results

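Cell cycle genes were followed in mammary tumors of MMTV-PyMT mice, whose mammary epithelium expresses the polyoma middle T oncogene from the MMTV promoter. The set held 45 genes, chosen by symbol and all found among the 31053 genes of each count matrix: 21 genes of S phase (Mcm2 to Ccne2 in the plots), 22 genes of G2 and mitosis (G2/M, Mki67 to Kif23), the G1 cyclin Ccnd1 and the cyclin-dependent kinase inhibitor Cdkn1a. The mice were females on the FVB/N background and the labels name no other allele. From 7 weeks of age they received either the isotype control mouse IgG2a (clone C1.18.4, 6 tumors) or the VEGF-A-blocking antibody B20-4.1.1 (9 tumors), each at 5 mg/kg into the peritoneum, 2 times per week for 6 weeks. The question was which cell cycle genes differed between the treatments, and in which cells.

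Dividing cells copy their DNA in S phase and segregate it in mitosis. The genes of the first step encode the replicative helicase (the Mcm proteins), the sliding clamp Pcna, nucleotide synthesis enzymes such as Tyms, Rrm1 and Rrm2, and licensing factors such as Cdc6 and Cdt1, and many of them are driven by E2F factors. The genes of the later step encode Cdk1 and its cyclins Ccnb1, Ccnb2 and Ccna2, the Aurora and Plk1 kinases, spindle motors such as Kif11, and kinetochore proteins such as Cenpe and Cenpf. Their transcripts accumulate in G2 through E2F, B-Myb and FoxM1. Mki67, the gene of the proliferation antigen Ki-67, is read in tumors as a mark of cycling cells.

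Single cells were measured with 10x 3′ chemistry after sorting of viable cells, with 3 tumors pooled in each of 5 libraries by multiplexing oligonucleotides (2 isotype pools and 3 B20-4.1.1 pools). Tumors 1 to 3 of a group came from its pool 1, tumors 4 to 6 from pool 2 and B20-4.1.1 tumors 7 to 9 from pool 3. Since no pool mixed the treatments, effects of the pool and of the antibody cannot be told apart. The deposited matrices held 30340 cells and between 4014509 and 23726246 unique molecular identifiers (UMIs, counted RNA molecules) per tumor, and 19533 cells passed the filters on UMIs and mitochondrial share. Cells were sorted into classes by marker genes, none of them a member of the set: 13745 epithelial-like (8256 isotype, 5489 B20-4.1.1), 2702 T-like (642 and 2060) and 1465 macrophage-like cells (885 and 580). In the epithelial-like class 6 of 8 epithelial markers were detected in more than 50% of cells, and in the T-like class 7 of 8 T cell markers were. Across pools 94 cell barcodes recurred, and within a pool 0 did. All values below are UMIs of a gene per 10000 UMIs of the class in a tumor, and all tests took the tumor as the replicate.

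The promoters of Hells and Mki67 are printed because these genes carried the clearest differences of the S phase and G2/M lists. RefSeq promoters on GRCm38.p6 were matched for 37 of the 45 genes, all but Ccnd1, Ccne2, Gins2, Pbk, Ccna2, Aurkb, Mcm4 and Tpx2, and the 250 bases before each start were searched on both strands. Capitals mark E2F letters (TTTCCCGC, TTTGGCGC, TTTGCCGC or TTTCGCGC) in the first, and the cell cycle homology region (CHR, TTTGAA) and CCAAT boxes of either strand in the second.
Hells promoter, chr19:38930740-38930989, plus strand: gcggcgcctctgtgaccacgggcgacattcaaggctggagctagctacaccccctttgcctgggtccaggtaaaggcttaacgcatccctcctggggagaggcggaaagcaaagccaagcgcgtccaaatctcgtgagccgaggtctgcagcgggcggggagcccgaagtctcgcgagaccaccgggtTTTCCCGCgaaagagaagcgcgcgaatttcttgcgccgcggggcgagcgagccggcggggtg
Mki67 promoter, chr7:135716380-135716629, minus strand: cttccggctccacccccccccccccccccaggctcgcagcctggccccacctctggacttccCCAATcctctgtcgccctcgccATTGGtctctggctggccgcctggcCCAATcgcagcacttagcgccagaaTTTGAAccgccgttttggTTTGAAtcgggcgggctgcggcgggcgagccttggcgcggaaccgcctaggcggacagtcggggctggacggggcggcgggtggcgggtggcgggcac
The Hells window held 1 run of E2F letters, 62 to 55 bases before the RefSeq start. The Mki67 window held 2 CHR runs, 116 to 111 and 98 to 93 bases before the start, and 3 CCAAT boxes, 1 of them on the other strand.

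The letters searched divided the lists as follows. E2F letters stood in 5 of 18 matched S phase promoters (27.8%) and in 1 of 18 G2/M promoters (5.56%), against 1.86% of all 32817 promoters of the same length. CHR letters stood in 2 of 18 S phase promoters (11.1%) and in 7 of 18 G2/M promoters (38.9%), against 16.0% of all. CCAAT stood in 12 of 18 (66.7%) and 16 of 18 (88.9%), against 33.8% of all. These matches describe letters in a window and were not tested for use by any factor. By the GENCODE annotation of GRCm38, Hells spans chr19:38930915-38971051 on the plus strand, with a start inside the window printed. That start lies before the marked E2F letters, which fall within the gene by this annotation. Mki67 spans chr7:135689784-135716361 on the minus strand.

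In epithelial-like cells, the class in which the oncogene is driven, 4 of the 45 genes were lower under B20-4.1.1 at an adjusted p under 0.05: Hells, Mcm4, Mki67 and Ccnd1. No member was higher (edgeR). Among all 12346 genes tested, 7.11% were lower and 7.51% were higher at that threshold, so the share of members called was near the background. The direction was shared more widely. Of the 45 members 42 had a negative log2 difference, against 50.7% of all genes, with a median of -0.57, against -0.01 over all genes. At an unadjusted p under 0.05, 18 members were lower, against 16% of all genes, and 1, Cdkn1a, was higher. The share of all genes that were higher at this unadjusted threshold was close to the 16% that were lower. The share of members that were higher was thus below the background.

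Hells encodes a chromatin remodeler needed for DNA methylation. Its level in isotype tumors had a minimum of 0.177, a median of 0.206 and a maximum of 0.228 UMIs per 10000, and in B20-4.1.1 tumors a minimum of 0.0456, a median of 0.107 and a maximum of 0.162. It was the only member for which every B20-4.1.1 tumor lay below every isotype tumor, a separation found for 1.36% of all genes tested. Its log2 difference was -0.75 (SE 0.17, edgeR quasi-likelihood test, Benjamini-Hochberg adjusted p = 0.0104). The counts behind it were 1567 UMIs in isotype tumors and 669 under B20-4.1.1. Without B20-4.1.1 pool 1 the adjusted p was 0.056, with the pool as a random block (limma voom) it was 0.117, and with sums per pool it was 0.412.

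Mcm4 encodes a subunit of the replicative helicase (chr16:15623897-15637400, minus strand). In isotype tumors it ran from 0.127 through a median of 0.143 to 0.156 UMIs per 10000, and in B20-4.1.1 tumors from 0.0661 through 0.0915 to 0.148. The groups overlapped, with 8 of 9 B20-4.1.1 tumors below the isotype mean, and the log2 difference was -0.50 (SE 0.14, edgeR adjusted p = 0.0270). This call depended on single pools: the adjusted p was 0.084 without isotype pool 1, 0.073 without isotype pool 2 and 0.127 without B20-4.1.1 pool 1.

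The other helicase subunits and the clamp moved less evenly. Mcm2 had a log2 difference of -0.79 (edgeR adjusted p = 0.0525). Mcm5 ran from 0.0447 through 0.0559 to 0.0708 UMIs per 10000 in isotype tumors and from 0.0157 through 0.0255 to 0.0618 in B20-4.1.1 tumors, a log2 difference of -0.68 (SE 0.27, edgeR adjusted p = 0.0968). Pcna differed by -0.08 (SE 0.11, edgeR adjusted p = 0.641), with a median of 0.156 in isotype tumors and 0.134 under B20-4.1.1, and its groups overlapped. Neither Mcm5 nor Pcna passed the test. Over the 21 S phase genes 2 were lower (Hells and Mcm4), 19 had a negative difference and the median was -0.54. The S phase genes with a positive difference were Slbp, which binds the stem-loop of histone mRNA (0.14, edgeR adjusted p = 0.291), and Ung, which removes uracil from DNA (0.13, edgeR adjusted p = 0.790).

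Mki67 ran from 0.256 through a median of 0.366 to 0.458 UMIs per 10000 in isotype tumors. In B20-4.1.1 tumors it ran from 0.0114 through 0.144 to 0.276, and all 9 of these tumors lay below the isotype mean, although the groups overlapped by the lowest isotype tumor. The log2 difference was -1.05 (SE 0.28, edgeR adjusted p = 0.0215). The lowest value, in B20-4.1.1 tumor 4, rested on 1 UMI. Without isotype pool 1 the adjusted p was 0.108, and without B20-4.1.1 pool 1 it was 0.052.

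No other G2/M gene passed the test. Top2a, the topoisomerase that untangles replicated DNA, ran from 0.117 through 0.196 to 0.294 UMIs per 10000 in isotype tumors and from 0.0114 through 0.139 to 0.211 in B20-4.1.1 tumors (log2 difference -0.58, SE 0.35, edgeR adjusted p = 0.260). Cdk1, the mitotic kinase, ran from 0.0606 through 0.106 to 0.133 and from 0.0114 through 0.0560 to 0.0888 (-0.67, SE 0.26, edgeR adjusted p = 0.0908). Ccnb1, its cyclin, ran from 0.0234 through 0.0478 to 0.0772 and from 0 through 0.0250 to 0.0888 (-0.77, SE 0.45, edgeR adjusted p = 0.247). The isotype and B20-4.1.1 ranges overlapped for all 3 of these genes. Over the 22 G2/M genes 1 was lower, 22 had a negative difference and the median was -0.62. Closest to the threshold after Mki67 were Cenpe (edgeR adjusted p = 0.0605) and Cenpf (edgeR adjusted p = 0.0653).

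Ccnd1 encodes cyclin D1, which activates Cdk4 and Cdk6 in G1 (chr7:144929931-144939925, minus strand). Its median was 1.12 UMIs per 10000 in isotype tumors and 0.632 under B20-4.1.1, a log2 difference of -0.81 (SE 0.20, edgeR adjusted p = 0.0135). The 3 tumors of isotype pool 1 held 1.74, 1.58 and 1.50 UMIs per 10000, whereas those of isotype pool 2 held 0.733, 0.599 and 0.628, within or next to the B20-4.1.1 range of 0.364 to 0.711. Without isotype pool 1 the difference was -0.18 (edgeR adjusted p = 0.516), and without isotype pool 2 it was -1.25.

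Cdkn1a, which encodes p21, was the member with the largest positive difference (chr17:29090976-29100727, plus strand). Its median was 0.546 UMIs per 10000 in isotype tumors and 0.813 under B20-4.1.1, and it did not pass the test (log2 difference 0.55, SE 0.26, edgeR adjusted p = 0.150). Its isotype pools differed in the same way as for Ccnd1, at 0.799, 0.727 and 0.706 in pool 1 and 0.386, 0.202 and 0.297 in pool 2. Without isotype pool 1 Cdkn1a was higher under B20-4.1.1 by 1.20 (edgeR adjusted p = 0.030), and without isotype pool 2 the difference was 0.11 (edgeR adjusted p = 0.746). In isotype pool 1 the median mitochondrial share of epithelial-like cells was also higher, 5.89% to 6.03% per tumor against 3.13% to 3.69% in isotype pool 2 and 2.49% to 3.16% in B20-4.1.1 tumors. Its deposited cells were shallower, with tumor medians of 2192 to 2423 UMIs against 6034 to 6582 in isotype pool 2. The B20-4.1.1 medians ran from 2819 to 9834.5. Cells left out as mixed numbered 88 to 152 per tumor in isotype pool 1 and 31 to 47 in isotype pool 2. The part of these traits in the result was not tested.

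**Figure D1:**
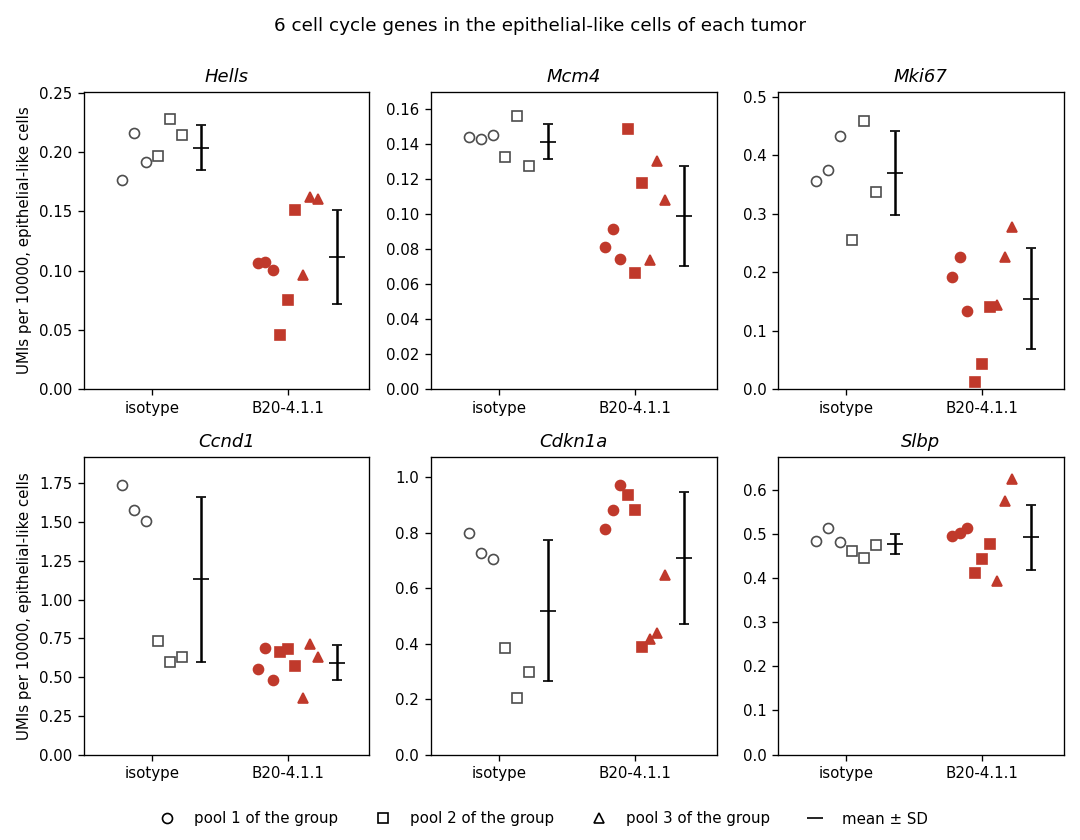
Levels of 6 members in the epithelial-like cells of each tumor, in UMIs per 10000 UMIs, with isotype tumors as open and B20-4.1.1 tumors as filled symbols, the symbol shape giving the pool and the bars the mean ± SD (n = 6 and 9). For Hells the 9 B20-4.1.1 tumors (0.0456 to 0.162) lie below the 6 isotype tumors (0.177 to 0.228), and for Ccnd1 only the 3 tumors of isotype pool 1 (1.50 to 1.74) stand above the rest.

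The count of lower members in epithelial-like cells depended on which pool was left out. Without isotype pool 1 it was 2 (Hells and Tyms), against 1.48% of all genes, and Cdkn1a was the only member called higher. Without isotype pool 2 it was 3 (Hells, Mki67 and Ccnd1), against 20.9%. Without B20-4.1.1 pool 1 it was 1 (Ccnd1), against 4.41%, and without B20-4.1.1 pool 3 it was 12, against 3.49%. With the pool as a random block (limma voom) the count was 0, and the adjusted p was 0.117 for Hells, 0.151 for Mcm4, 0.192 for Mki67 and 0.213 for Ccnd1. With sums per pool the count was also 0. Without the scaling by trimmed means it was 9, against 9.92% of all genes. In all of these fits the 4 genes called above kept a negative difference.

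Summed over each list, the S phase genes held 2.70 ± 0.22 UMIs per 10000 in isotype tumors (SD, n = 6, range 2.35 to 3.05) and 2.05 ± 0.44 in B20-4.1.1 tumors (SD, n = 9, range 1.58 to 2.86). The G2/M genes held 2.36 ± 0.53 (range 1.85 to 3.15) and 1.32 ± 0.73 (range 0.262 to 2.38). Within B20-4.1.1 the pools differed: the mean G2/M level was 1.80 in pool 1, 0.450 in pool 2 and 1.70 in pool 3, against 2.01 and 2.71 in the isotype pools. The lists were described and not tested as sums.

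**Figure D2:**
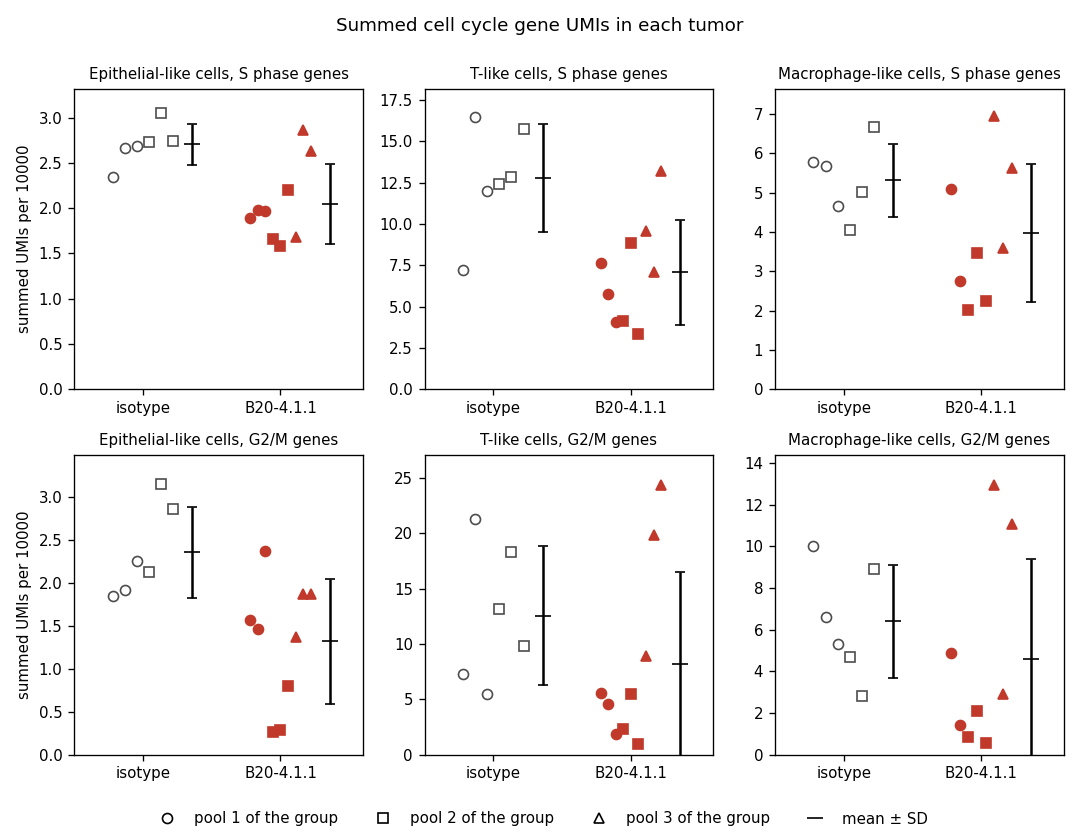
Summed UMIs of the 21 S phase genes (top) and the 22 G2/M genes (bottom) per 10000 UMIs of epithelial-like, T-like and macrophage-like cells in each tumor, with the mean ± SD per group. In epithelial-like cells B20-4.1.1 pool 2 (squares) holds the lowest mean G2/M level, 0.450, and in T-like cells B20-4.1.1 pool 3 (triangles) holds the highest, 17.7.

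To compare cells at an equal depth, each cell was thinned to 2500 UMIs and counted where 2 or more genes of a list were detected. For G2/M genes this share was 4.81% ± 1.12 of epithelial-like cells in isotype tumors (SD, n = 6, range 3.30% to 6.65%) and 2.60% ± 1.48 in B20-4.1.1 tumors (SD, n = 9, range 0% to 4.32%). The 0% was that of B20-4.1.1 tumor 4, with 78 epithelial-like cells, where 3 cells would make 3.85%. Neutrophil-like cells, which have left the cycle, gave 2.83% (3 of 106 cells, exact 95% interval 0.588% to 8.05%). Fibroblast or mural-like cells gave 1.64% (1 of 61 cells, 0.0415% to 8.80%). T-like cells with 2 or more naive markers, described below by treatment, gave 2.16% (32 of 1483 cells, 1.48% to 3.03%). The B20-4.1.1 mean lay within each of these intervals. The isotype mean lay within those of the neutrophil-like and fibroblast or mural-like cells and above that of the naive-marked cells. Of the naive-marked cells, however, 1409 came from B20-4.1.1 tumors and 74 from isotype tumors. Those of isotype tumors gave 13.5% (6.68% to 23.5%), an interval above the isotype mean. Those of B20-4.1.1 tumors gave 1.56% (0.981% to 2.35%), an interval below the B20-4.1.1 mean. The naive-marked cells therefore give no single background for the G2/M share. For S phase genes the shares were 9.54% ± 0.68 and 6.48% ± 2.50. Neutrophil-like cells gave 9.43% (10 of 106 cells, 4.62% to 16.7%), an interval that held both means. Their Slbp level was 0.773 UMIs per 10000, against 0.484 in epithelial-like cells. Fibroblast or mural-like cells gave 1.64% (1 of 61 cells, 0.0415% to 8.80%), an interval that held the B20-4.1.1 mean and lay below the isotype mean. The naive-marked cells gave a higher share than either group. Since these references disagree, they cannot decide whether the S phase share of epithelial-like cells exceeds background. Median depths before thinning were 8712 UMIs in epithelial-like and 3108 in neutrophil-like cells. Unthinned, the S phase share was 37.3% in isotype tumors and 40.0% under B20-4.1.1, the opposite order, and the G2/M share was 11.1% and 6.84%. Epithelial-like cells were deeper under B20-4.1.1, with tumor medians of 7477 to 11929 UMIs against 7509 to 9494.5. Intervals on shares cover counting error only.

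Depth was also read against the G2/M genes. Isotype epithelial-like cells with 2 or more G2/M genes after thinning (396 cells) had held a median of 12056.5 UMIs, against 8144 in the other 7860. In B20-4.1.1 tumors the medians were 13880 in 162 cells and 9311 in 5327. With the cells of each group ordered by depth and cut into 4 equal bins, from the shallowest, the share with 2 or more G2/M genes was 4.51%, 2.71%, 2.57% and 9.40% in isotype tumors and 2.19%, 1.17%, 2.77% and 5.69% under B20-4.1.1, so that it was highest in the deepest bin and did not rise steadily. The upper UMI limit used to remove likely doublets took out cells of this kind. Above it lay 96 isotype epithelial-like cells, of which 32.3% had 2 or more G2/M genes (exact 95% interval 23.1% to 42.6%), and 248 B20-4.1.1 cells, of which 13.7% had (9.68% to 18.6%). Cells were pooled over the tumors of a group here, so these intervals do not compare the treatments. With no upper limit 4 members were lower (Hells, Uhrf1, Mki67 and Ccnd1), against 6.54% of all genes, the median over the 45 was -0.38, Mki67 differed by -0.67 (edgeR adjusted p = 0.044) and Mcm4 by -0.40 (edgeR adjusted p = 0.069).

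Within single epithelial-like cells the members were found together. Among thinned cells with 2 or more other G2/M genes, 51.3% held a UMI of Mki67, against 1.35% of the remaining cells. Of the S phase genes Pclaf, which binds Pcna, was found in 45.9% against 1.49%, Hells in 18.8% against 2.24% and Rrm2 in 16.8% against 0.60%. Slbp stood apart, at 20.3% against 11.2%. Ccnd1 was found in 29.9% of the 558 cells with G2/M genes and in 12.9% of the others, higher in 12 of the 12 tumors with at least 10 such cells. Cdkn1a was found in 10.8% and 8.10%, higher in 8 of 12 tumors. These shares describe cells of shared libraries and were given no test.

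**Figure D3:**
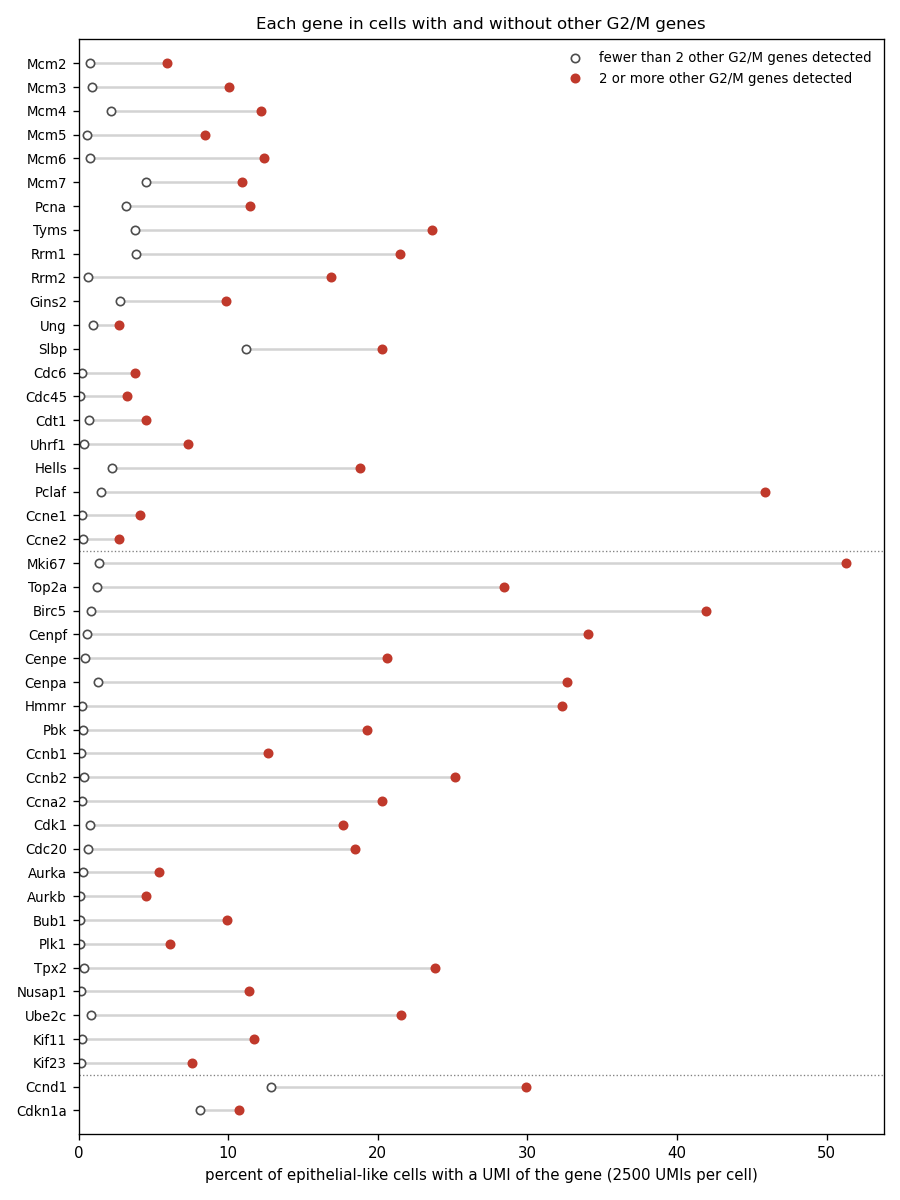
Percent of epithelial-like cells, all tumors pooled and each cell thinned to 2500 UMIs, with a UMI of each member, in cells with 2 or more other G2/M genes (filled) and in the rest (open). Mki67 shows the widest gap, 51.3% against 1.35%, and Cdkn1a a narrow one, 10.8% against 8.10%.

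Markers of other classes were also read in the epithelial-like sums. The 8 T cell markers together ran from 0.0744 to 0.158 UMIs per 10000 in isotype tumors and from 0.144 to 0.387 under B20-4.1.1, and the 9 macrophage markers from 0.117 to 0.560 and from 0.151 to 0.398. The 7 neutrophil markers ran from 4.60 to 11.3 and from 2.80 to 8.82, and 1 of them was detected in 60.4% of epithelial-like cells. The T cell markers moved with the treatment, and their part in the differences above was not tested.

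Further genes of the cycle, from lists kept apart from the 45, were read in the same fit. Of 24 replication genes tested 2 were lower and 18 had a negative difference (median -0.18). Cdca7, which recruits Hells to chromatin, fell by 0.49 on the log2 scale (SE 0.12, edgeR adjusted p = 0.0147). Of 34 mitosis genes tested 1 was lower and 32 had a negative difference (median -0.37). It was Smc2, a condensin subunit, which fell by 0.50 (SE 0.15, edgeR adjusted p = 0.0312). Both counts were near the 7.11% of all genes.

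Of 26 regulators of cycle entry and exit 2 were lower and 1 was higher, with a median of -0.01, where 7.11% and 7.51% of all genes were. Cdk6, a kinase partner of cyclin D, fell by 0.61 (SE 0.15, edgeR adjusted p = 0.0144), and the cyclin Ccnd3 rose by 0.26 (SE 0.07, edgeR adjusted p = 0.0228). Of 11 p53 targets other than Cdkn1a 2 were higher, against the same 7.51%, and the median was 0.08. They were Gdf15, a stress-induced cytokine (log2 difference 1.08, SE 0.29, edgeR adjusted p = 0.0215), and Bbc3, which encodes the death factor Puma (0.38, SE 0.12, edgeR adjusted p = 0.0415).

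In T-like cells 32 members passed the filter on low counts, and 0 were lower at an adjusted p under 0.05, where the background was also 0% of 6144 genes (edgeR). At an unadjusted p under 0.05, 18 were lower, against 6.72% of all genes, and DESeq2 called 1, Hells. Without the filter all 45 could be fitted: 44 had a negative difference, against 46.8% of all genes, 28 were lower at an unadjusted p under 0.05, against 5.68%, and the median was -0.93, against 0.04 over all genes. These fits kept B20-4.1.1 tumors 3, 4 and 6, whose T-like cells (662, 344 and 579) mostly held naive markers (below). The other B20-4.1.1 tumors held 26 to 176 T-like cells. Tumor means were higher under B20-4.1.1 for Ccnb1 (0.177 against 0.138), Cdc20 (0.221 against 0.175), Aurka (0.118 against 0.089) and Ube2c (0.575 against 0.478). Those of the other members were lower. The genes below the filter were Cdc6, Cdc45, Ccne1, Ccne2, Pbk, Ccnb1, Cdc20, Aurka, Aurkb, Bub1, Plk1, Ccnd1 and Cdkn1a. Ccnd1 had 12 UMIs in isotype and 37 in B20-4.1.1 T-like cells, Cdkn1a 43 and 56, and Ccnb1 52 and 70.

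The smallest p in T-like cells belonged to Hells, Mcm2 and Mcm3. Hells ran from 0.917 through a median of 1.14 to 2.05 UMIs per 10000 in isotype tumors and from 0.199 through 0.621 to 1.00 in B20-4.1.1 tumors (log2 difference -1.30, SE 0.30, edgeR adjusted p = 0.135). All 9 B20-4.1.1 tumors lay below the isotype mean and the ranges overlapped. Mcm2 ran from 0.245 through 0.333 to 0.448 and from 0.0852 through 0.126 to 0.297 (-1.07, SE 0.29, edgeR adjusted p = 0.150). Mcm3 had medians of 0.710 and 0.359 (-0.95, SE 0.25, edgeR adjusted p = 0.150). Mcm5 had medians of 0.482 and 0.179 (-0.94, SE 0.28, edgeR adjusted p = 0.167), and Pcna medians of 0.601 and 0.341 (-0.57, SE 0.23, edgeR adjusted p = 0.232). None of these passed the test.

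The G2/M genes of T-like cells varied widely between tumors of the same treatment. Mki67 ran from 1.09 through 1.80 to 4.43 UMIs per 10000 in isotype tumors. In B20-4.1.1 tumors it was 0.171, 0.520 and 0.167 in pool 1, 0.160, 0.491 and 0.0155 in pool 2 and 1.15, 2.28 and 3.56 in pool 3, so that pool 3 lay in the isotype range and the other 6 tumors below it. The log2 difference was -1.47 (SE 0.71, edgeR adjusted p = 0.314). Top2a differed by -0.97 (SE 0.60, edgeR adjusted p = 0.438) and Cdk1 by -0.93 (SE 0.57, edgeR adjusted p = 0.432), with overlapping ranges. The 8 epithelial markers summed in T-like cells to 2.05 to 2.78 UMIs per 10000 in isotype tumors and 1.71 to 2.95 under B20-4.1.1. The 7 dendritic cell markers ran from 4.68 through a median of 5.60 to 6.76 and from 2.79 through 4.30 to 5.97, a lower median under B20-4.1.1 with overlapping ranges. Among them is Ccr7, also used below as a naive T cell marker and detected in 37.6% of T-like cells. The median dendritic marker was detected in 0.148% of T-like cells. The sum was not divided by gene. It is therefore not read here as a measure of dendritic cells in this class, and its part in the result was not tested.

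Without B20-4.1.1 pool 3, 25 of 34 members tested were lower in T-like cells, against 2.1% of all 6936 genes. That fit kept B20-4.1.1 tumors 3, 4 and 6, whose T-like cells mostly held naive markers (below). Mki67 then differed by -3.14 and Hells by -1.63 (edgeR adjusted p = 0.0149 for each). The summed G2/M level averaged 4.00 UMIs per 10000 in B20-4.1.1 pool 1, 2.93 in pool 2 and 17.7 in pool 3, against 11.3 and 13.8 in the isotype pools. The value for B20-4.1.1 as a whole was 8.21 ± 8.31 (SD, n = 9), against 12.5 ± 6.27 (SD, n = 6).

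The T-like cells also differed in kind between tumors. Naive T cells do not divide until they meet antigen. Cells with 2 or more of the naive markers Ccr7, Lef1, Tcf7 and S1pr1 made up 80.1%, 83.7% and 88.4% of the T-like cells in B20-4.1.1 tumors 3, 4 and 6. In the other B20-4.1.1 tumors they made up 1.82% to 29.0%, and in isotype tumors 5.19% to 24.4%. Tumors 3, 4 and 6 of B20-4.1.1 also held 90, 30 and 55 B-like cells, where each other tumor of either group held 0 to 2. Their epithelial-like cells numbered 301, 78 and 163. Without these 3 tumors 0 of 27 members tested were lower, 10 were so at an unadjusted p under 0.05 (edgeR), against 3.27% of all genes, and Hells differed by -0.92 (edgeR adjusted p = 0.308). In T-like cells with fewer than 2 naive markers 1 of 24 was lower, against 0.0837% of all 4777 genes, and 13 were so at an unadjusted p under 0.05, against 5.71%. It was Hells, which differed by -1.06 (SE 0.22, edgeR adjusted p = 0.0397). In those cells the thinned G2/M share was 12.3% ± 2.72 in isotype tumors (SD, n = 6) and 7.91% ± 7.91 under B20-4.1.1 (SD, n = 9), where pool 3 held 11.1%, 13.0% and 26.1% and the other 6 tumors 1.11% to 5.36%. Cells with 2 or more naive markers gave 13.5% in isotype tumors (10 of 74 cells, exact 95% interval 6.68% to 23.5%) and 1.56% under B20-4.1.1 (22 of 1409 cells, 0.981% to 2.35%), at medians of 3434 and 3847 UMIs. These cells were pooled over tumors, and those under B20-4.1.1 came mostly from tumors 3, 4 and 6. The intervals cover counting error only and do not compare the treatments.

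Without the 3 tumors rich in naive markers 2 members were lower in epithelial-like cells (Hells and Mcm4), against 4.87% of all genes, with an adjusted p of 0.0539 for Ccnd1 and 0.0576 for Mki67 (edgeR).

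**Figure D4:**
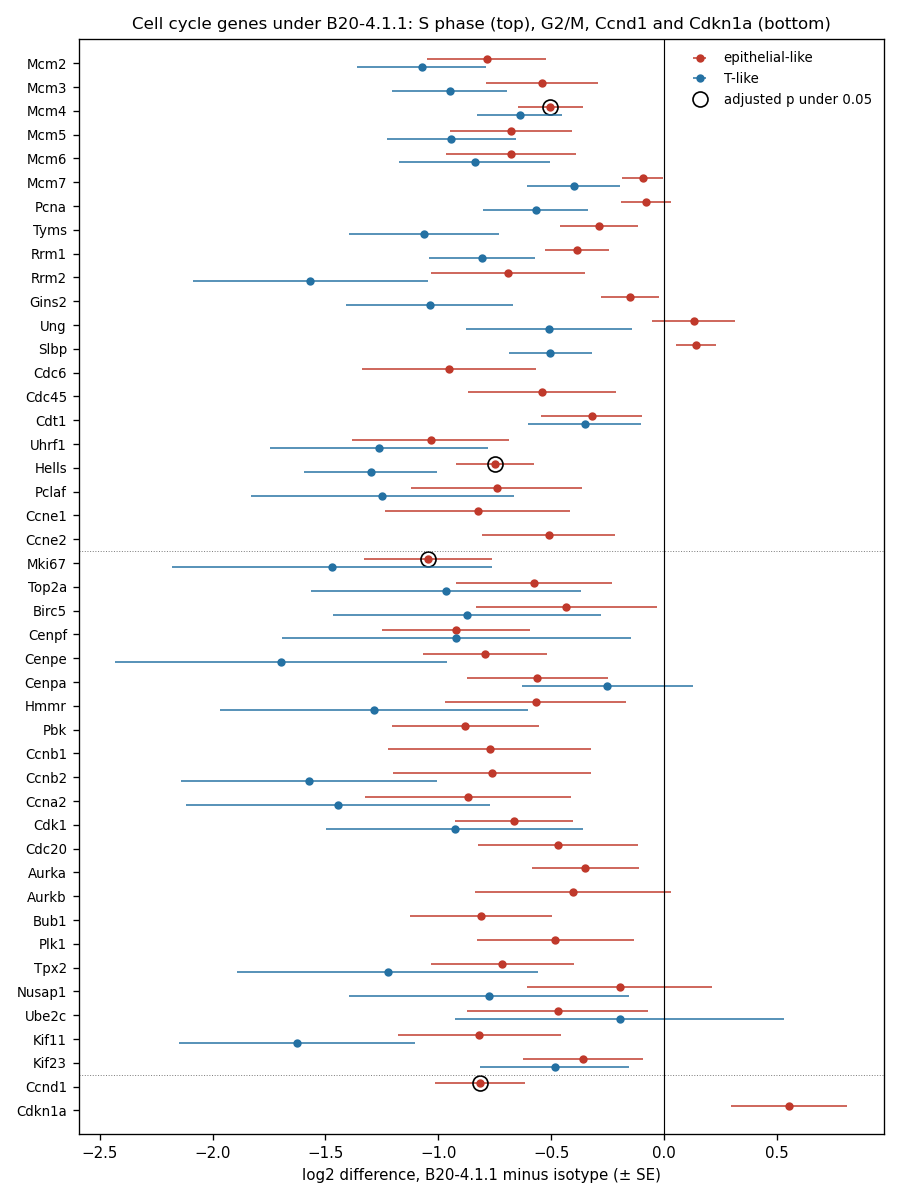
Log2 difference between B20-4.1.1 and isotype tumors for each member, as points with SE from the edgeR fit, in epithelial-like (red) and T-like cells (blue), where genes under the count filter have no blue point. In epithelial-like cells 42 of 45 points lie left of 0, and the 4 ringed ones (Hells, Mcm4, Mki67 and Ccnd1) pass an adjusted p of 0.05. No T-like point does.

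In macrophage-like cells (6 isotype and 8 B20-4.1.1 tumors, since B20-4.1.1 tumor 3 held 15 such cells) 27 members were tested and 0 were called (edgeR, DESeq2 and limma voom), where the background of lower genes was 0% of 6784. At an unadjusted p under 0.05 only Slbp was lower (log2 difference -0.37, SE 0.16, edgeR adjusted p = 0.439), against 4.82% of all genes. Without the filter 36 of 45 members had a negative difference, against 56.2% of all genes, with a median of -0.19, against -0.07. Hells differed by -0.57 (edgeR adjusted p = 0.587) and Mcm7 by -0.47 (edgeR adjusted p = 0.648). Mki67 ran from 0.440 through 1.13 to 2.09 UMIs per 10000 in isotype and from 0.0673 through 0.294 to 2.31 in B20-4.1.1 tumors (-0.61, SE 0.50, edgeR adjusted p = 0.728).

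The remaining macrophage-like values were small against their errors. Top2a differed by -0.17 (edgeR adjusted p = 0.948), Cdk1 by 0.14 (edgeR adjusted p = 0.958), Mcm5 by -0.40 (edgeR adjusted p = 0.749) and Pcna by -0.16 (edgeR adjusted p = 0.800). Ccnd1 differed by -0.25 (edgeR adjusted p = 0.800). Cdkn1a, at 1.86 to 2.75 UMIs per 10000 in isotype and 1.59 to 3.78 in B20-4.1.1 tumors, differed by 0.16 (edgeR adjusted p = 0.805). Ccnb1 lay under the count filter. Summed G2/M levels were 6.40 ± 2.70 (SD, n = 6) and 4.59 ± 4.80 (SD, n = 8), with pool means of 3.14, 1.17 and 8.98 in B20-4.1.1 pools 1 to 3. Thinned G2/M shares were 11.0% ± 3.88 and 6.00% ± 5.59, and S phase shares 20.1% and 14.7%. Among the further cell cycle genes 0 were called in T-like or macrophage-like cells at an adjusted p under 0.05 (edgeR).

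Levels were then compared between cell classes, relative to the UMIs of each class. Median depths were 8712 UMIs in epithelial-like, 4124.5 in T-like and 6440 in macrophage-like cells. Pooled over tumors, the thinned G2/M shares of these classes were 4.06%, 5.33% and 9.90%, and the S phase shares 8.60%, 23.7% and 18.0%. The differences in level below do not give differences in the share of cells. Within the 15 tumors, 34 of 38 members tested were lower in epithelial-like than in T-like cells, against 36.2% of all 10062 genes, and 2 were higher, against 41.4%. Without the filter 41 of 45 were lower, against 20.8%. Nusap1, a spindle protein, was lowest (log2 difference -3.58, SE 0.34), followed by the helicase subunit Mcm3 (-3.39, SE 0.18). Top2a differed by -3.23, Mcm6 by -3.19, the spindle motors Kif11 and Kif23 by -3.08 and -3.06, Mcm5 by -3.00 and the cyclin Ccne1 by -2.91. Mki67 differed by -2.24, Cdk1 by -2.19, Ccnb1 by -1.85 and Pcna by -1.67, and each of these genes passed the test.

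The 2 exceptions were the genes outside both lists. Ccnd1 was higher in epithelial-like cells by 4.17 (SE 0.25, edgeR adjusted p = 5.18e-13), at 0.850 UMIs per 10000 with all tumors pooled against 0.0377 in T-like cells. Cdkn1a was higher by 2.73 (SE 0.30, edgeR adjusted p = 1.85e-08), at 0.575 against 0.0761. Gins2 (-0.34, edgeR adjusted p = 0.0983) and Pbk (-0.20, edgeR adjusted p = 0.569) did not pass the test. Of the further genes, 18 of 18 replication genes tested and 16 of 20 mitosis genes were lower in epithelial-like than in T-like cells, 3 mitosis genes were higher, and the regulators were divided, with 13 lower and 7 higher of 22. Of 10 p53 targets tested 4 were lower and 3 were higher.

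Against macrophage-like cells, within 14 tumors, 24 of 30 members tested were lower in epithelial-like cells, against 37.5% of all 9504 genes, and 0 were higher, against 40.9%. Without the filter 37 of 45 were lower, against 20.6%. Mcm3 differed by -2.83 (SE 0.17), Cenpa, the centromeric histone, by -2.31, Cenpe by -2.29, Top2a by -2.28 and Mcm5 by -2.18. Cdkn1a was also lower, by a log2 difference of -2.09 (SE 0.16, edgeR adjusted p = 1.89e-11). Cdt1 differed by -1.97, Mcm6 by -1.91, Mki67 by -1.85, Pcna by -1.75 and Cdk1 by -1.50. Ccnd1 differed by -0.14 (edgeR adjusted p = 0.454), at 0.850 and 0.919 UMIs per 10000, and Gins2, Ube2c, Pbk, Tyms and Mcm7 did not pass the test either. Without isotype pool 1 the count of lower members was 13 of 17 tested, against 35.9% of all genes.

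**Figure D5:**
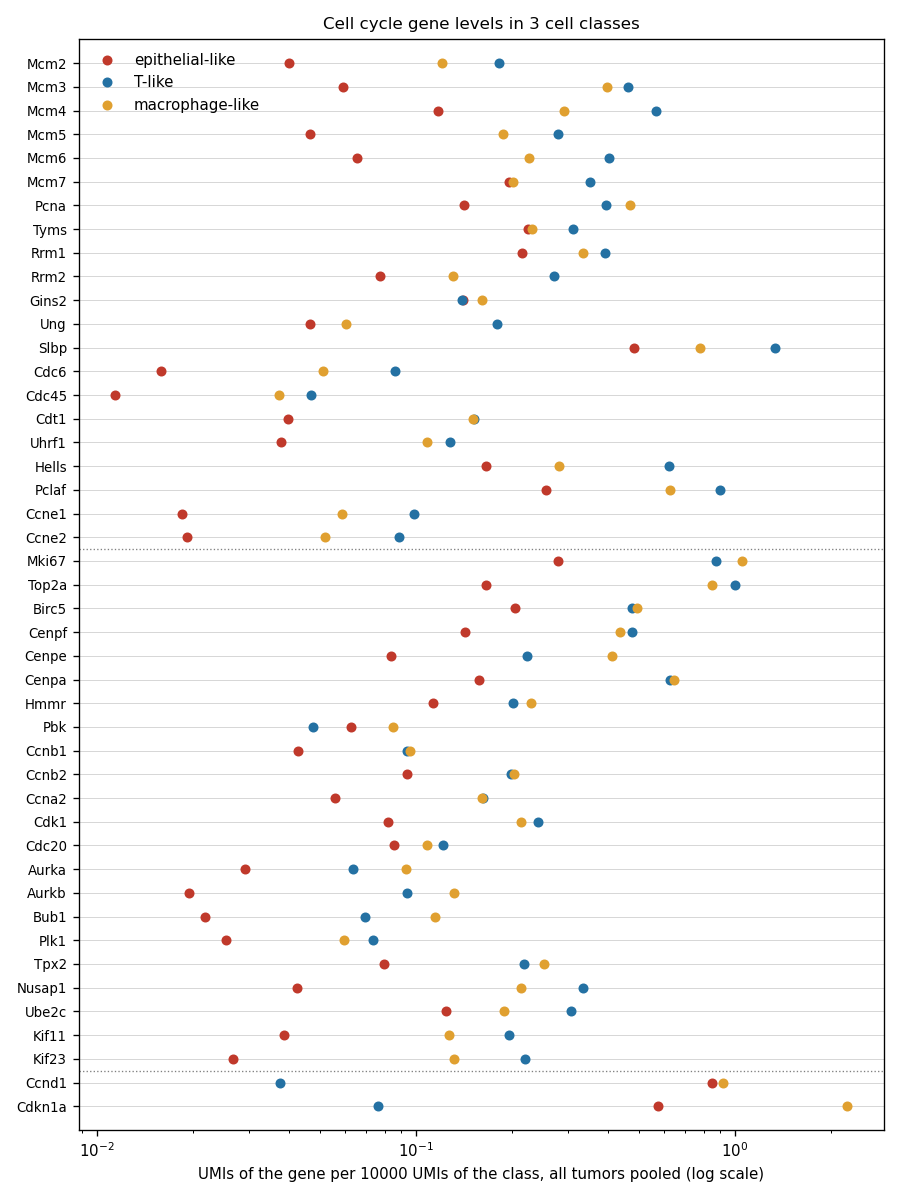
Level of each member in epithelial-like (red), T-like (blue) and macrophage-like cells (yellow), as UMIs per 10000 UMIs of the class with all tumors pooled, on a log axis. Most S phase and G2/M genes lie furthest left in epithelial-like cells, whereas Ccnd1 (0.850, 0.0377 and 0.919) and Cdkn1a (0.575, 0.0761 and 2.26) lie furthest left in T-like cells.

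Whether the treatment difference itself differed between epithelial-like and T-like cells was tested with an interaction term (limma voom, 6 isotype and 9 B20-4.1.1 tumors, the tumor as a block). Of 45 members 1 was called: Slbp, by 0.80 (SE 0.18, limma adjusted p = 0.0258), against 1.16% of all 11165 genes called in that direction. In T-like cells Slbp ran from 1.64 to 2.34 UMIs per 10000 in isotype and from 0.771 to 2.18 in B20-4.1.1 tumors, and in epithelial-like cells from 0.445 to 0.513 and from 0.393 to 0.624. The lowest T-like values, 0.806, 0.818 and 0.771, belonged to the 3 tumors rich in naive T cell markers. Without those tumors the term for Slbp was 0.39 (limma adjusted p = 0.667). The term was 1.16 for Tyms (limma adjusted p = 0.0960) and 2.05 for Mki67 (limma adjusted p = 0.109), which did not pass the test, and 41 of 45 terms were positive, against 52.7% of all genes. Without the 3 tumors rich in naive markers 18 of 45 terms were positive, against 48.7% of all genes, and the median of the members was -0.18.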

How the data were processed

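Reads were aligned and counted by the authors with Cell Ranger (6.1.2 in the file headers, mm10 in the submitters' processing notes), and the deposited matrices hold raw UMI counts per cell, with 12 multiplexing features besides the genes. Cells with 2500 to 27500 UMIs and at most 20% mitochondrial UMIs were kept, and the lower UMI limit removed 7126 isotype and 2981 B20-4.1.1 cells. A cell joined a class when at least 3 of its markers had a UMI, and was left out as mixed when the share of another class's markers detected exceeded 60% of the best. No doublet caller was run, and doublets were limited by the upper UMI filter and the mixed class. Gate thresholds were set after the data were seen. Counts were summed per tumor and class (at least 20 cells) and tested two-sided with edgeR 4.0.16 (quasi-likelihood, TMM, filterByExpr), with tumor as a block between classes and limma 3.58.1 voom for the interaction, in R 4.3.3, with Benjamini-Hochberg adjustment over all genes tested. Alternatives were DESeq2 1.42.0, no TMM factors, no count filter, the pool as a random block, sums per pool, each pool left out, other limits on UMIs (1000 at the least, or no maximum) and mitochondrial share (10%), a stricter gate, thinning to 2500 UMIs, and 3 genes per cell in place of 2. One marker of naive T cells is not reported here. The edgeR treatment fits, the DESeq2 and limma voom fits in epithelial-like cells, the class contrasts and the interaction were tested on simulated counts. Those counts held no pool effect. The sums per pool, shares, intervals and outlier rule were not simulated. The members and lists were chosen with earlier results of these data known. Named genes were Mki67, Top2a, Cdk1, Ccnb1, Pcna, Mcm5, Ccnd1 and Cdkn1a, the members called in each comparison (at most 8 per direction by size, otherwise the 3 smallest p), and at most 3 further cycle genes per direction; others were chosen after their values were seen. The labels give each tumor its own mouse.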

Additional observations from a re-analysis of the deposited data

Results flagged for a closer look

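In epithelial-like cells Ccnb1 stood at 0.0888 UMIs per 10000 in B20-4.1.1 tumor 3, far from the other 8 tumors of the group, of which the next held 0.0359. In T-like cells B20-4.1.1 tumor 9 stood apart by its thinned G2/M share, 25% where the next tumor held 11.5%, and by Cdk1, at 1.15 UMIs per 10000 where the next tumor held 0.401. These 3 values came from 80 groups of tumors examined, and chance sets about 1 in 20 groups apart. The treatment difference of Slbp differed between epithelial-like and T-like cells by 0.80 on the log2 scale (limma voom interaction).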

How the results depend on the processing

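No paired analysis was possible because the tumors of both treatments share no animal or library, and each pool held a single treatment. The alternatives on the 3 tumors rich in naive T cell markers and on T-like cells with fewer than 2 such markers were chosen after seeing the data. Depth limits low members most: in B20-4.1.1 tumors several rest on 0 or 1 UMI. In epithelial-like cells the count of lower members was 8 with DESeq2, 9 with no TMM factors, 0 with the pool as a random block or with sums per pool, 2 without the 3 naive-rich tumors, and 1 to 12 with a pool left out (higher members 0 to 1). Their unthinned difference in share (B20-4.1.1 minus isotype) was 2.76 percentage points for S phase and -4.22 for G2/M. In T-like cells DESeq2 called 1 member, the fit on cells with fewer than 2 naive markers also called 1, and leaving out pools gave 0 to 25. Against T-like cells the count of lower members was 16 of 19 tested after thinning, and 30 to 37 with a pool left out. Against macrophage-like cells it was 37 with no filter, 4 of 5 after thinning and 13 to 35 with a pool left out, and Ccnd1 became 0.061 with DESeq2, 0.015 with no filter and ranged from -0.36 to 0.15 with a pool left out. Members called in the interaction numbered 2 with no TMM factors, 0 with no filter, 3 after thinning, 0 without the 3 naive-rich tumors and 0 to 2 with a pool left out. The counts of called members in this paragraph stand without the share of all genes called in the same fit. Some of these shares are given above, and the other counts cannot be read as an excess of members. Without the 3 naive-rich tumors the interaction turned for Top2a (-0.17), Cdk1 (-0.40), Mcm5 (-0.23) and the median of the members (-0.18). With a pool left out it ranged from -1.29 to 0.075 for Ccnb1 and from -0.15 to 0.28 for Mcm5, and Ccnb1 was 0.16 with no UMI maximum. In macrophage-like cells Cdk1 was -0.70 with the pool as a random block and Top2a 0.11 without the 3 naive-rich tumors. With a pool left out Top2a ranged from -1.25 to 0.48, Ccnd1 from -0.65 to 0.0057, Cdkn1a from -0.049 to 0.39, Mcm5 from -0.93 to 0.13 and the summed G2/M level from -4.43 to 0.25. The causes were not tested. With no TMM factors the median of all genes moved by -0.14 in T-like cells and by 0.15 in the interaction.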
